A study of Arabidopsis thaliana with 12 samples.

Results

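The genes described here are 9 day-phased and evening-phased genes of the Arabidopsis circadian clock: PRR7 (AT5G02810), PRR5 (AT5G24470), TOC1 (AT5G61380), GI (AT1G22770), ELF3 (AT2G25930), ELF4 (AT2G40080), LUX (AT3G46640, listed as PCL1 in RefSeq), BOA (AT5G59570) and FKF1 (AT1G68050). They were picked by name, after earlier results of the same libraries had shown clock genes that differed between groups, so their folds and calls are given as a description and not as evidence that the clock was singled out. The count table lists 36795 loci, and all 9 genes were in it and passed the filter on low counts. The study sequenced messenger RNA of after-ripened whole seeds in 12 libraries, 3 per group, which the design text calls biological replicates. The 4 groups were odr1-2 seeds in mannitol, odr1-2 seeds in water, Col-0 seeds in mannitol and Col-0 seeds in water. odr1-2 is described only as a mutant, and Col-0 is the wild-type accession. The count columns of odr1-2 are headed m49, a code that is not explained. Beyond this the labels give no further allele, line or seed batch. Every group had a cold stratification of 2 days (4 °C) before soaking, which lasted 12 h, in water or in 300 mM mannitol as an osmotic stress. Plants were kept in 16 h of light and 8 h of dark at 22 °C, and neither the light during soaking nor the hour of harvest is given, so a shift in clock phase and a change in level cannot be told apart at the single time sampled.

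The plant clock is a network of transcriptional repressors that act in turn through the day. CCA1 and LHY, MYB-related factors that peak at dawn, repress genes of the evening by binding a short promoter sequence called the evening element, while RVE4 and RVE8, of the same family, bind it as activators. The PRR proteins (PRR9, PRR7, PRR5 and TOC1) appear one after another from morning to dusk and repress CCA1 and LHY, and ELF3, ELF4 and LUX form the evening complex, which represses PRR9, PRR7, GI and LUX itself. GI and the F-box photoreceptor FKF1 work together in blue light to degrade repressors of flowering. Dry seeds hold the clock in a stalled state, and imbibition is known to set it running.

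The promoters printed here show the kinds of window found among these genes: BOA and FKF1 hold an evening element, and PRR7 does not. Each line is the 250 bases before the outermost annotated transcript start, 5′ to 3′ on the gene's strand, from the RefSeq genome TAIR10.1. The BOA window is chr5:24003638-24003887 (plus strand), the FKF1 window is chr1:25508389-25508638 (plus strand) and the PRR7 window is chr5:642031-642280 (minus strand). Capitals mark matches to the motifs searched, on either strand: the evening element AAATATCT (AGATATTT where it lies on the other strand) and the G-box CACGTG.
BOA: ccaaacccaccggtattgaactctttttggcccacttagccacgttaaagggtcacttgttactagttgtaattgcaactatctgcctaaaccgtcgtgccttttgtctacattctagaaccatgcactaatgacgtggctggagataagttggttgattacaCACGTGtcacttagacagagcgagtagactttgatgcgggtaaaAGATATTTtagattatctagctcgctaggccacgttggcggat
FKF1: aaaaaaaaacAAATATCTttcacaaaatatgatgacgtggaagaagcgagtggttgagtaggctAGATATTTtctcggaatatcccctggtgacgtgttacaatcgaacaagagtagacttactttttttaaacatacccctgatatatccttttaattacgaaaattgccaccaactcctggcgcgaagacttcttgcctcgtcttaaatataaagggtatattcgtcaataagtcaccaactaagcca
PRR7: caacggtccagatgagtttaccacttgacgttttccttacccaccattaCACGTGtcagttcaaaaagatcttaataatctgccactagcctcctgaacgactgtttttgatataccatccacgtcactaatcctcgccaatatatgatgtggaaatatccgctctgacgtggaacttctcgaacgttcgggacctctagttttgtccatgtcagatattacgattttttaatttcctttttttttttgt

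An evening element stood in the window of 5 of the 8 genes searched (PRR5, TOC1, LUX, BOA and FKF1), and in 4.79% of the 27443 promoters of the same length in the genome. LUX and FKF1 each had 2 matches, and the LUX pair lay 70 to 63 and 52 to 45 bases before the transcript start. PRR7, GI and ELF3 had none. The G-box stood in PRR7, LUX and BOA (6.49% of all promoters), the LUX-type site GATACG in ELF3 (4.6%), and the LUX-type site GATTCG in 0 of 8 (7.86%). The CCA1 binding site AAAAATCT stood in PRR5 alone (6.69%). The evening element and the CCA1 binding site differ by 1 letter and were counted apart, and no match overlapped another in these 8 windows. A match is a run of letters and does not show that a protein binds there, and a window without one says nothing about binding elsewhere.

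**Figure D1:**
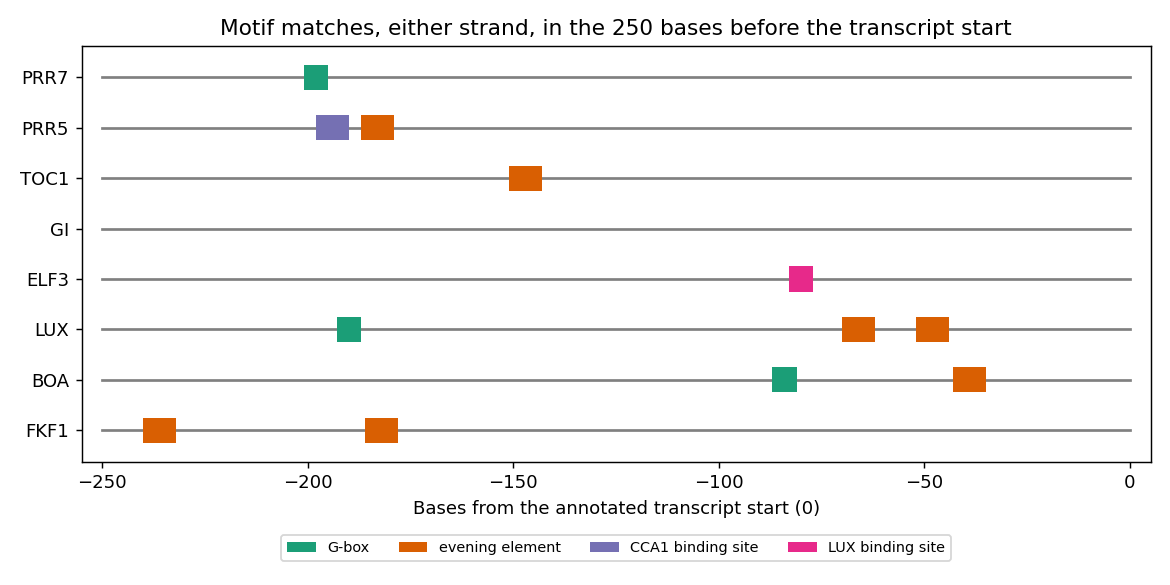
Motif matches in the 250 bases before the transcript start of the 8 genes searched. The horizontal axis is the distance from the transcript start in bases, each row is a gene, and markers show the kind of motif. Evening elements appear in 5 of the 8 rows, and the GI row is empty.

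Libraries held 10060020 to 13693166 counts, which put 10 to 61 counts on PRR5 in a library and 42 to 126 on FKF1, so these 2 genes are the least precise. Replicates of a group differed by more than counting error alone, with a chi-square per degree of freedom of 2.01 to 2.81 except for Col-0 mannitol replicate 2. That library stood apart from its partners (5.75 against replicate 1 and 4.48 against replicate 3), and calls of genes named below that it changes are given with its value. Seed maturation transcripts marked the tissue in every library. The 11 storage and late-embryogenesis genes summed to 47500.5 to 48221.2 TPM (a level scaled to gene length and library) in odr1-2 mannitol, 28252.8 to 28670.7 TPM in odr1-2 water, 27888.4 to 29816.7 TPM in Col-0 mannitol and 11860.1 to 11954.4 TPM in Col-0 water. The 5 endosperm genes summed to 1770.52 to 1817.12 TPM in odr1-2 mannitol, 2346.04 to 2425.3 TPM in odr1-2 water, 1138.03 to 1194.27 TPM in Col-0 mannitol and 1213.49 to 1223.78 TPM in Col-0 water. The 4 green-seedling genes summed to 454.65 to 480.32 TPM in odr1-2 mannitol, 495.18 to 508 TPM in odr1-2 water, 638.99 to 664.92 TPM in Col-0 mannitol and 605.08 to 610.2 TPM in Col-0 water, with LHCB2.1 at 0 counts. The 3 seed coat genes summed to at most 4.61 TPM in any library. These sums moved with genotype and with mannitol, and their part in the results below was not tested. The genes of a list did not all move with its sum. RBCS1A made up most of the green-seedling sum and was lower in odr1-2 in both media, as was LHCB1.3. RCA was higher in odr1-2 (48.0 against 24.1 TPM in mannitol and 40.3 against 22.6 TPM in water). CRB, a storage gene, was lower in odr1-2 (501 against 643 TPM in mannitol and 282 against 344 TPM in water), unlike most of its list. EXPA2 made up most of the endosperm sum and was higher in odr1-2 in both media, as was MAN7. ICE1 was lower in odr1-2 (99.2 against 125.7 TPM in mannitol and 121.6 against 132.7 TPM in water). MAN6 was about level between genotypes in water (29.1 TPM in each), and ZOU had 1 count in total. In a bulk sample, fewer cells of a type and less RNA per cell cannot be told apart.

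Per unit of length, ELF4 was the most abundant of the 9 transcripts in 3 groups. ELF4, a small protein of the evening complex, averaged 58.4 ± 1.80 TPM in odr1-2 water, 102 ± 3.67 TPM in Col-0 mannitol and 117 ± 7.97 TPM in Col-0 water (SD, n = 3 each). In odr1-2 mannitol PRR7 led with 47.1 ± 1.85 TPM, followed by ELF3 and ELF4 (40.3 ± 5.55 TPM), whose ranges overlapped. PRR5 was the lowest in every group, at 2.77 TPM in odr1-2 mannitol, 1.3 TPM in odr1-2 water, 3.98 TPM in Col-0 mannitol and 2.52 TPM in Col-0 water. FKF1 was next to lowest, with group means between 3.29 and 7.49 TPM. From here on levels are CPM (counts scaled to the library total and a TMM factor), which compare 1 gene between groups but not genes with each other.

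PRR7, PRR5 and TOC1 are pseudo-response regulators that repress CCA1 and LHY. PRR7 had 100.7, 100.2 and 107.2 CPM in odr1-2 mannitol, 84.9, 87.0 and 87.4 CPM in odr1-2 water, 73.9, 65.7 and 77.3 CPM in Col-0 mannitol and 72.5, 69.0 and 68.6 CPM in Col-0 water. All 6 odr1-2 libraries lay above all 6 Col-0 libraries, odr1-2 mannitol was highest, and the 2 Col-0 groups overlapped. PRR5 had 4.04, 2.47 and 2.87 CPM in odr1-2 mannitol, 0.973, 1.24 and 1.89 CPM in odr1-2 water, 4.66, 5.32 and 2.95 CPM in Col-0 mannitol and 2.46, 2.62 and 2.80 CPM in Col-0 water. The odr1-2 water libraries were the 3 lowest, and odr1-2 mannitol overlapped both Col-0 groups. TOC1, the dusk member of the family, had 60.8, 58.2 and 63.5 CPM in odr1-2 mannitol, 51.8, 49.9 and 55.3 CPM in odr1-2 water, 73.1, 69.6 and 67.7 CPM in Col-0 mannitol and 60.2, 64.1 and 58.2 CPM in Col-0 water. Col-0 mannitol was highest and odr1-2 water lowest without overlap, while odr1-2 mannitol and Col-0 water lay in the same range.

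GI, a scaffold protein that stabilises F-box photoreceptors, had 42.8, 34.1 and 38.3 CPM in odr1-2 mannitol, 24.7, 32.5 and 28.2 CPM in odr1-2 water, 27.5, 22.7 and 26.2 CPM in Col-0 mannitol and 22.4, 23.4 and 22.4 CPM in Col-0 water. Only odr1-2 mannitol stood clear of the other groups, and each of the other groups overlapped its neighbour in order of level. FKF1 had 8.64, 11.5 and 7.98 CPM in odr1-2 mannitol, 4.09, 4.26 and 5.08 CPM in odr1-2 water, 12.0, 10.3 and 9.11 CPM in Col-0 mannitol and 8.42, 5.98 and 6.62 CPM in Col-0 water. The odr1-2 water libraries were the lowest, the 2 mannitol groups overlapped, and odr1-2 mannitol overlapped Col-0 water.

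ELF3, ELF4 and LUX encode the evening complex, and BOA is the closest relative of LUX, a MYB-type factor known to activate CCA1. ELF4 had 14.2, 17.5 and 18.7 CPM in odr1-2 mannitol, 23.2, 22.5 and 22.3 CPM in odr1-2 water, 40.0, 40.4 and 42.2 CPM in Col-0 mannitol and 47.3, 41.6 and 45.9 CPM in Col-0 water. All 6 odr1-2 libraries lay below all 6 Col-0 libraries, and the 2 Col-0 groups overlapped. BOA had 59.1, 68.0 and 62.5 CPM in odr1-2 mannitol, 37.9, 37.5 and 44.8 CPM in odr1-2 water, 89.0, 96.2 and 87.5 CPM in Col-0 mannitol and 43.6, 47.5 and 49.1 CPM in Col-0 water. All 6 mannitol libraries lay above all 6 water libraries, and the 2 genotypes overlapped in water. LUX, the DNA-binding part of the complex, had 29.7, 34.4 and 30.4 CPM in odr1-2 mannitol, 22.7, 24.9 and 21.9 CPM in odr1-2 water, 34.6, 36.0 and 33.1 CPM in Col-0 mannitol and 27.8, 28.8 and 28.5 CPM in Col-0 water. As for BOA, all mannitol libraries lay above all water libraries, odr1-2 water was lowest, and the 2 mannitol groups overlapped. ELF3, the scaffold of the complex, had 76.7, 79.6 and 75.9 CPM in odr1-2 mannitol, 74.0, 75.3 and 71.3 CPM in odr1-2 water, 95, 79.5 and 93.4 CPM in Col-0 mannitol and 79.9, 84.2 and 79.2 CPM in Col-0 water. The 2 odr1-2 groups were separate by a narrow gap, and the 2 Col-0 groups overlapped each other. ELF3 varied least of the 9 genes, with a ratio of highest to lowest group mean of 1.21, against 3.15 for PRR5, 2.67 for ELF4, 2.34 for FKF1 and 2.27 for BOA. The other ratios were 1.69 for GI, 1.49 for LUX, 1.47 for PRR7 and 1.34 for TOC1.

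**Figure D2:**
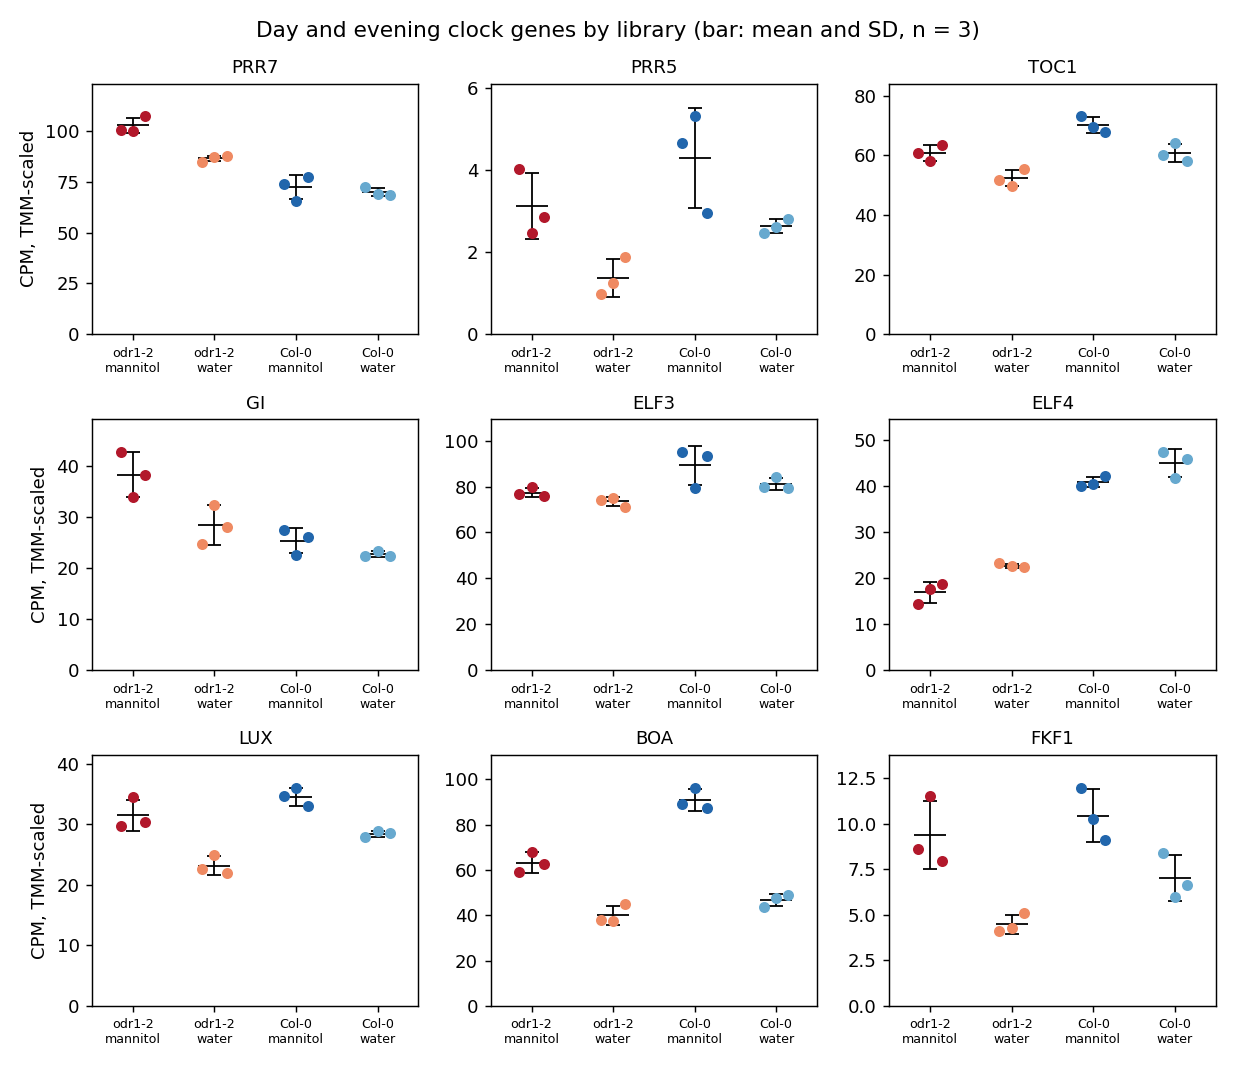
Level of each gene in every library, in CPM after TMM scaling on the vertical axis, with 1 panel per gene and the 4 groups along the horizontal axis. Points are libraries (3 per group), and the long bar and whiskers are the group mean and SD. ELF4 is lower in the odr1-2 groups, PRR7 is higher there, and BOA is higher in both mannitol groups.

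In TAIR10.1 the genes other than ELF4 span chr5:637681-642030 (PRR7, minus strand), chr5:8356204-8358546 (PRR5, minus), chr5:24674963-24678550 (TOC1, plus), chr1:8061751-8067790 (GI, plus), chr2:11058944-11063324 (ELF3, plus), chr3:17183042-17186959 (LUX, plus), chr5:24003888-24007844 (BOA, plus) and chr1:25508639-25510907 (FKF1, plus). Some of these transcripts overlap genes on the opposite strand, and the strand setting of the counting is not given in the sources used here. The BOA exons overlap UGT76E1 by 1679 bases and the LUX exons overlap AT3G46650 by 698 bases, but these neighbours had 1.72% and 0.221% of the counts of BOA and LUX. FKF1 overlaps MAP70-1 by 21 bases, and MAP70-1 had 190% of its counts. ELF3 overlaps the antisense RNA AT2G08135 by 21 bases (9.85% of its counts) and ALPHA-VPE by 24 bases. Of the stretches of 50 bases in the annotated transcripts, 10 of 3508 in BOA and 36 of 2070 in FKF1 occur elsewhere in the genome, and none do in the other 7 genes.

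In odr1-2 seeds, mannitol went with higher levels of most of the day and evening genes and a lower level of ELF4. PRR5 and FKF1 differed most, with log2 fold changes of mannitol over water of 1.16 ± 0.32 and 1.06 ± 0.19 (SE). BOA followed with 0.65 ± 0.08, LUX with 0.44 ± 0.09 and GI with 0.43 ± 0.10. PRR7 (0.25 ± 0.06) and TOC1 (0.22 ± 0.07) were higher by less, and ELF4 was at -0.43 ± 0.10. ELF3 was at 0.08 ± 0.07 and was not called. By the edgeR quasi-likelihood test with Benjamini-Hochberg adjustment over 18413 genes and a threshold of 0.05, 7 of the 9 genes were called higher and 1 lower. Over all genes 42.5% were called, 21.2% higher and 21.3% lower, and the groups did not overlap for 9 of the 9 genes and for 50.4% of all genes. The median log2 fold change was 0.43 over the 9 genes and 0.00 over all genes. The TOC1 call was lost without odr1-2 mannitol replicate 3 (0.19), without odr1-2 water replicate 2 (0.18) and with total count scaling (0.15), and the TOC1, PRR7 and GI calls were lost on the TPM values, where the log2 fold changes with a pseudocount of 1 were 0.11, 0.14 and 0.30.

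In Col-0 seeds, BOA showed the clearest difference with mannitol, at 90.9 ± 4.65 CPM in mannitol and 46.7 ± 2.81 CPM in water (SD, n = 3 each), a log2 fold change of 0.96 ± 0.07 (SE). PRR5 (0.71 ± 0.28), FKF1 (0.58 ± 0.17), LUX (0.28 ± 0.09) and TOC1 (0.20 ± 0.07) were also called higher. PRR7 (0.05 ± 0.06), GI (0.16 ± 0.10), ELF3 (0.14 ± 0.06) and ELF4 (-0.14 ± 0.09) were not called. These counts were 5 of 9 higher and 0 of 9 lower in the same test, with 42.4% of all genes called, 21.0% higher and 21.4% lower. None of the 9 was lower at an unadjusted p under 0.05, and DESeq2 and limma-voom also called 0 of the 9 lower, and 4 higher. Of the 18413 genes tested, DESeq2 called 3564 higher and 3708 lower, and limma-voom called 3788 and 3935. The groups did not overlap for 5 of the 9 genes and for 49.4% of all genes. The median log2 fold change was 0.20 over the 9 genes. The PRR5 call was lost on leaving out any of 5 libraries: Col-0 mannitol replicate 1 (0.65) or 2 (0.52), or Col-0 water replicate 1 (0.66), 2 (0.70) or 3 (0.75). The TOC1 call was lost without Col-0 mannitol replicate 1 or Col-0 water replicate 3 (both 0.17), and ELF3 was called higher without Col-0 mannitol replicate 2 (0.22), the library that stood apart.

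Between genotypes in mannitol, ELF4 differed most. It averaged 16.8 ± 2.33 CPM in odr1-2 and 40.8 ± 1.16 CPM in Col-0 (SD, n = 3 each), a log2 fold change of odr1-2 over Col-0 of -1.28 ± 0.10 (SE). BOA was lower in odr1-2 by the same measure (-0.52 ± 0.07), as were ELF3 (-0.21 ± 0.06) and TOC1 (-0.20 ± 0.07), while GI (0.59 ± 0.10) and PRR7 (0.51 ± 0.06) were higher. PRR5 (-0.46 ± 0.27), FKF1 (-0.15 ± 0.17) and LUX (-0.13 ± 0.09) were not called. That made 2 of 9 higher and 4 lower in the edgeR test, with 40.1% of all genes called, 20.5% higher and 19.6% lower. The groups did not overlap for 5 of the 9 genes and for 46.6% of all genes, and the median log2 fold change of the 9 was -0.20. The TOC1 call was lost without odr1-2 mannitol replicate 2 (-0.17) or Col-0 mannitol replicate 1 (-0.18), and the ELF3 call without Col-0 mannitol replicate 1 (-0.16) or 3 (-0.17).

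Between genotypes in water, ELF4 was again lower in odr1-2 and PRR7 and GI higher, and more of the 9 genes were called. The comparisons share groups: each library enters a mannitol comparison and a genotype comparison. ELF4 averaged 22.7 ± 0.454 CPM in odr1-2 and 44.9 ± 2.96 CPM in Col-0 (SD, n = 3 each), a log2 fold change of -0.99 ± 0.09 (SE). PRR5 (-0.91 ± 0.32), FKF1 (-0.63 ± 0.19), LUX (-0.29 ± 0.09), BOA (-0.22 ± 0.08) and TOC1 (-0.22 ± 0.07) were lower in odr1-2, and GI (0.33 ± 0.10) and PRR7 (0.31 ± 0.06) were higher. ELF3 (-0.14 ± 0.06) was not called. In the edgeR test 2 of 9 were called higher and 6 lower, with 39.0% of all genes called, 20.4% higher and 18.6% lower. The groups did not overlap for 8 of the 9 genes, BOA being the exception, and for 49.4% of all genes, and the median log2 fold change of the 9 was -0.22. Single libraries decided several of these calls. BOA was no longer called without odr1-2 water replicate 1 (-0.18) or 2 (-0.17), or without Col-0 water replicate 2 (-0.21) or 3 (-0.18). PRR5 was no longer called without odr1-2 water replicate 1 (-0.74) or 2 (-0.83) or without Col-0 water replicate 3 (-0.86). The TOC1 call was lost without odr1-2 water replicate 2 or Col-0 water replicate 2 (both -0.18), and the GI call without odr1-2 water replicate 2 (0.22). The LUX call was lost without odr1-2 water replicate 3 (-0.25) and the FKF1 call without Col-0 water replicate 1 (-0.48), while ELF3 was called lower without Col-0 mannitol replicate 2 (-0.14).

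**Figure D3:**
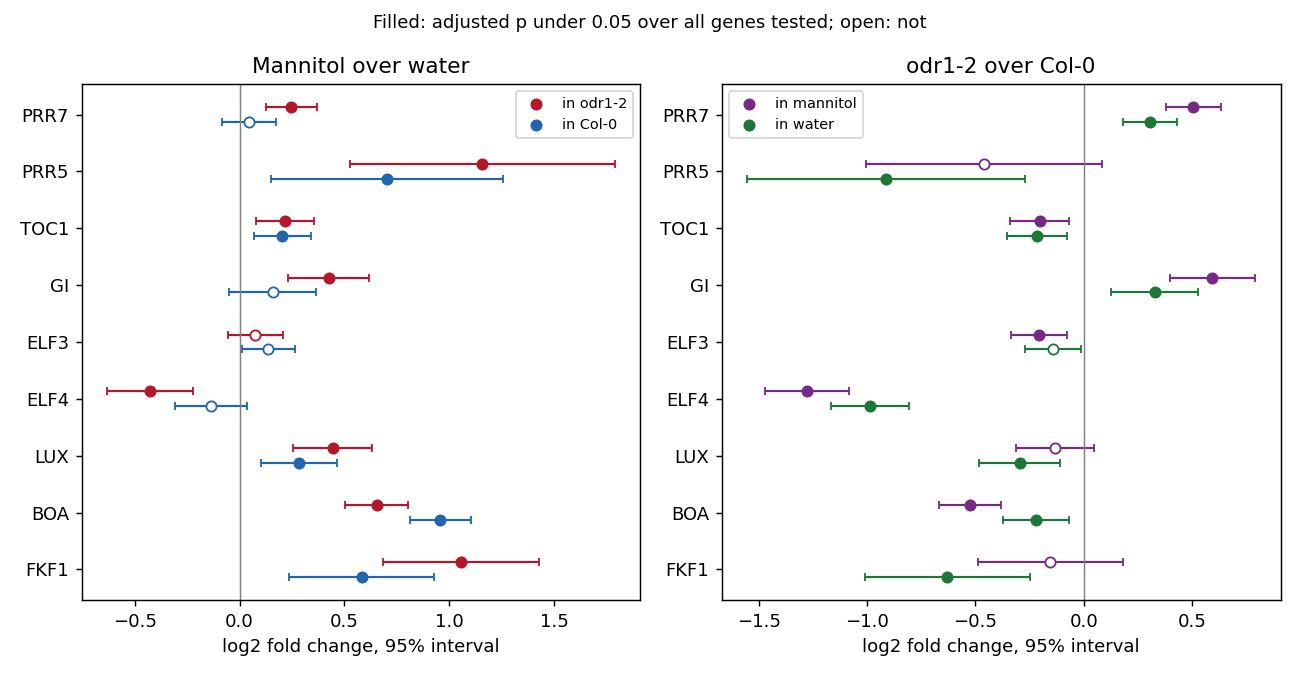
Log2 fold change of each gene with mannitol over water (left) and odr1-2 over Col-0 (right), as points with 95% intervals, with filled points for genes called by the edgeR test. ELF4 lies near -1 in both genotype comparisons, PRR7 and GI lie above 0 in them, and BOA lies above 0 in both mannitol comparisons.

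Among the 8 genes searched, the 5 with an evening element in the window were called lower in odr1-2 in water, but in mannitol TOC1 and BOA were called lower and PRR5, FKF1 and LUX were not. Of those without it, PRR7 and GI were higher in both media. ELF3, also without it, was called lower in mannitol (-0.21), and in water with upper-quartile (-0.19) or total count scaling (-0.16). ELF4, lower in both media, is not among the 8. This pattern was seen after the values were known, rests on few genes and was not tested. The shares over the genome are given beside it, with no test. Of the 789 other tested genes with an evening element, 24.1% were higher and 20.8% lower in odr1-2 water than in Col-0 water, beside 20.7% and 19.2% of the 16990 tested genes with a window. In mannitol these shares were 21.8% higher and 23.2% lower, beside 20.7% and 20.3%.

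Whether mannitol acted differently in the genotypes was tested by the interaction, the mannitol effect in odr1-2 minus that in Col-0. By the edgeR quasi-likelihood test 0 of the 9 genes passed in either direction, with 3.75% of all genes called (1.08% higher and 2.67% lower), and DESeq2 and limma-voom also called 0. Before adjustment 3 of the 9 had p under 0.05 in the edgeR test. The share of all genes at that threshold was not computed, so these 3 are only described. The estimated rise of PRR7 was larger in odr1-2 (difference 0.20 on the log2 scale, 95% interval 0.02 to 0.38, adjusted p 0.272). The estimated drop of ELF4 was larger there, at -0.43 in odr1-2 and -0.14 in Col-0 (difference -0.29, interval -0.56 to -0.02, adjusted p 0.298). The estimated rise of BOA was smaller there, at 0.65 in odr1-2 and 0.96 in Col-0 (difference -0.30, interval -0.51 to -0.09). The adjusted p of BOA was 0.0991 in edgeR and ran from 0.0461, with total count scaling (-0.34), to 0.415 over the 23 alternatives. For PRR5 (0.45, interval -0.39 to 1.3), FKF1 (0.48, interval -0.03 to 0.98) and GI (0.27, interval -0.02 to 0.55) the intervals include both no difference and a sizeable one. The effects past the threshold in 1 genotype and not in the other, of PRR7, GI and ELF4, are therefore not shown to differ between genotypes.

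The dawn and morning genes that these 9 act on or answer to were higher in odr1-2. The list of 10 (CCA1, LHY, PRR9, RVE4, RVE8, AT5G52660 and LNK1 to LNK4) had 9 called higher in odr1-2 mannitol against Col-0 mannitol, all but AT5G52660, and 10 in odr1-2 water against Col-0 water, with median log2 fold changes of 1.31 and 1.0. Of all genes tested, 20.5% were called higher in odr1-2 in mannitol and 20.4% in water. CCA1 averaged 79.3 ± 3.82 CPM in odr1-2 mannitol and 9.12 ± 1.62 CPM in Col-0 mannitol, a log2 fold change of 3.13 ± 0.10 (SE). In water CCA1 averaged 66.9 ± 1.78 CPM in odr1-2 and 15.1 ± 1.48 CPM in Col-0 (2.15 ± 0.09). LHY was higher in odr1-2 by 2.13 ± 0.08 in mannitol and 1.40 ± 0.07 in water, and PRR9 by 1.94 ± 0.09 and 1.62 ± 0.10. With mannitol, PRR9 was higher by 1.1 ± 0.08 in odr1-2 and 0.78 ± 0.11 in Col-0, RVE4 by 0.99 and 0.97 and RVE8 by 0.94 and 0.96. CCA1, LHY and LNK1 were lower with mannitol in Col-0, with log2 fold changes of -0.73, -0.71 and -0.38. With mannitol 8 of the 10 were called higher in odr1-2, beside 21.2% of all genes tested. In Col-0, 6 of the 10 were called higher and 3 lower with mannitol, beside 21.0% and 21.4% of all genes. Of the odr1-2 calls, CCA1 (0.24) was lost with total count scaling (0.17) and on log2(TPM + 1) (0.14), as were AT5G52660 (0.20 and 0.15) and LNK4 (0.08 and 0.05). LNK4 was also lost without odr1-2 mannitol replicate 1 (0.13) or odr1-2 water replicate 1 (0.14), and AT5G52660 without odr1-2 mannitol replicate 3 (0.21) or odr1-2 water replicate 2 (0.24) or 3 (0.20). In Col-0 the LNK3 call (0.24) was lost without Col-0 mannitol replicate 2 (0.14) or Col-0 water replicate 2 (0.21). Between genotypes in water the AT5G52660 call (0.29) was lost without odr1-2 water replicate 1 (0.20) or Col-0 water replicate 1 (0.28), 2 (0.27) or 3 (0.31). LNK3, LNK4 and AT5G52660 were named after their values were seen.

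Among 19 paralogs and partners of the clock proteins, calls in odr1-2 against Col-0 were 2 higher and 6 lower in mannitol and 2 higher and 5 lower in water. Over all genes tested, 20.5% were called higher and 19.6% lower in mannitol, and 20.4% and 18.6% in water. ELF4-L1, a paralog of ELF4, was higher in odr1-2 by 2.89 ± 0.26 in mannitol and 2.33 ± 0.33 in water, the opposite direction to ELF4. With mannitol it was higher by 1.58 ± 0.22 in odr1-2 and 1.01 ± 0.40 in Col-0, and the Col-0 call was lost without Col-0 mannitol replicate 1 (0.68) or Col-0 water replicate 2 (0.93) or 3 (0.98). It overlaps CYP5 on the other strand by 634 bases, and CYP5 had 742% of its counts, so its values are uncertain. ELF4-L3 averaged 0.513 CPM in odr1-2 mannitol and 2.11 CPM in Col-0 mannitol (-2.0 ± 0.50), and in water its call (-1.31 ± 0.55) was lost on leaving out any library other than odr1-2 mannitol replicates 1 and 3 and odr1-2 water replicate 2, with values from -1.38 without odr1-2 water replicate 1 to -0.95 without odr1-2 water replicate 3. PRR3, a relative of TOC1 and the other higher gene in both, was at 0.23 in mannitol, a call lost without Col-0 mannitol replicate 2 (0.18) and with upper-quartile (0.17) or total count scaling (0.17), and 0.42 in water. Also lower in water, besides AT4G33980, were JMJ30 (-0.55), a histone demethylase of the clock, FIO1 (-0.35) and XCT (-0.22), and the FIO1 and XCT calls were lost without odr1-2 water replicate 1 (-0.27 and -0.21) or 3 (-0.29 and -0.21) or Col-0 water replicate 3 (-0.30 and -0.21). With mannitol 9 of the 19 were higher and 1 lower in odr1-2, and 8 higher and 2 lower in Col-0. The shares of all genes were 21.2% higher and 21.3% lower in odr1-2, and 21.0% and 21.4% in Col-0. COR27, a cold-induced night regulator of the clock, was higher with mannitol by 1.03 ± 0.25 in odr1-2 and 1.86 ± 0.24 in Col-0, and AT4G33980 by 1.07 ± 0.11 and 1.53 ± 0.09. AT4G33980 was lower in odr1-2 than in Col-0 by both comparisons (-1.1 ± 0.09 in mannitol and -0.64 ± 0.11 in water). ZTL, the F-box protein that GI stabilises, was higher by 0.43 in both genotypes with mannitol, and LKP2, of the same family as ZTL and FKF1, by 0.68 in odr1-2 and 0.79 in Col-0. CHE, a TCP factor that represses CCA1, was lower with mannitol in both (-0.64 in odr1-2 and -0.48 in Col-0). The odr1-2 call of CHE was lost without odr1-2 mannitol replicate 2 (-0.42) or odr1-2 water replicate 2 (-0.48), and its Col-0 call without Col-0 mannitol replicate 2 (-0.45) or 3 (-0.34) or Col-0 water replicate 1 (-0.48) or 3 (-0.46). XCT was lower with mannitol in Col-0 (-0.28). PRR3, ZTL, LKP2, CHE, XCT, JMJ30, FIO1 and LNK1 were named after their values were seen.

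Of 17 output genes of the clock 9 were tested, and CDF1, AT2G34140, AT1G69570, FT, LHCB1.1 and CBF1 to CBF3 were too low to test. In odr1-2 against Col-0, 3 were higher and 3 lower in mannitol and 5 higher and 1 lower in water. Over all genes tested, 20.5% were called higher and 19.6% lower in mannitol, and 20.4% and 18.6% in water. PIF5, a light-signalling growth factor, was higher in odr1-2 by 2.05 ± 0.24 in mannitol and 1.66 ± 0.23 in water, and PIF4, its paralog, was lower in mannitol (-0.89 ± 0.21). GRP7, an RNA-binding protein of an evening-phased loop, was lower in odr1-2 (-0.70 ± 0.13 in mannitol and -0.79 ± 0.13 in water). CDF2 and CDF3 were also higher in odr1-2 in mannitol (0.46 and 0.70), where CAT3 was lower (-0.13), a call lost without odr1-2 mannitol replicate 1 (-0.12) or Col-0 mannitol replicate 1 (-0.09) or 3 (-0.12). In water CDF2 (0.32), CAT3 (0.20) and CAT2 (0.16) were higher in odr1-2. Except for PIF5, PIF4, GRP7 and CDF3 in water, these genotype values were chosen after they were seen. With mannitol 3 were called higher in each genotype, among them CAT3, an evening-phased catalase, with 0.92 ± 0.05 in odr1-2 and 1.26 ± 0.05 in Col-0, and CDF2, a repressor that GI and FKF1 target, with 0.68 ± 0.09 and 0.54 ± 0.10. The other higher genes with mannitol were CDF3 in odr1-2 (0.55 ± 0.12) and CAT2 in Col-0 (0.20 ± 0.04). Of all genes tested, 21.2% were called higher with mannitol in odr1-2 and 21.0% in Col-0. CDF3 was also higher in odr1-2 than in Col-0 in water (0.34 ± 0.13), a call that was lost without odr1-2 water replicate 1 (0.33) or 2 (0.29) and without Col-0 water replicate 2 (0.36) or 3 (0.25).

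**Figure D4:**
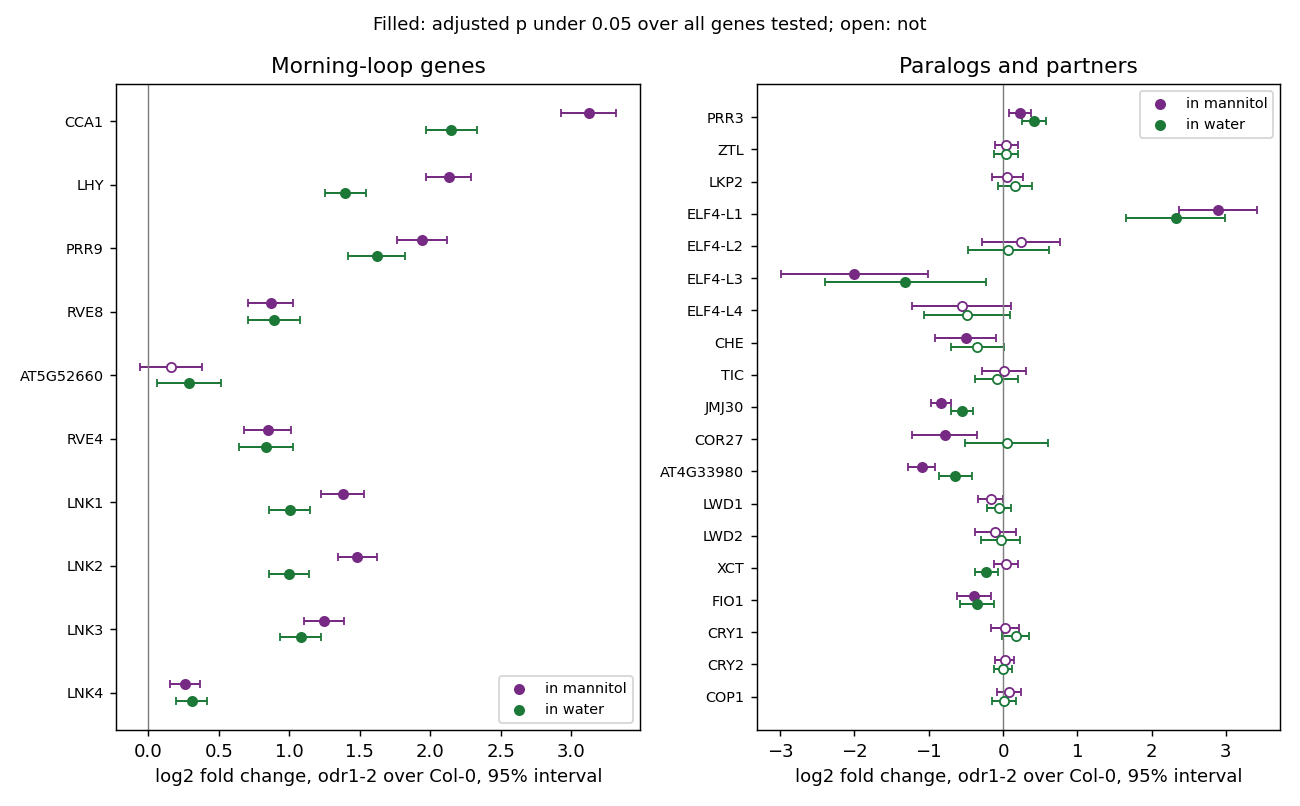
Log2 fold changes of odr1-2 over Col-0 in mannitol and in water, for the 10 morning genes and the 19 paralogs and partners, as points with 95% intervals, filled where called by the edgeR test. The morning genes lie above 0 in both genotype comparisons, with medians of 1.31 in mannitol and 1.0 in water.

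ELF4, BOA, PRR5 and FKF1 had group means at least 1 apart on the log2 scale, which allowed a search for genes of like pattern over the 12 libraries among 2503 genes of similar range. ELF4 was most like GPT2, a plastid glucose-6-phosphate transporter (Pearson r = 0.984), and TGG1, a myrosinase (r = 0.982). BOA was most like AT4G12290 (r = 0.975) and ASG5 (r = 0.969), PRR5 like MAPKKK13 (r = 0.920) and AT4G12290 (r = 0.884), and FKF1 like the chloroplast loci ATCG00350 (r = 0.929) and ATCG00340 (r = 0.914). These are the highest of many correlations over libraries that share 4 groups, and they are given as a description.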

How the data were processed

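The authors deposited a table of raw counts per gene and a table of TPM for 36795 loci and 12 libraries. Per the labels, RNA was isolated with a FastPure kit, messenger RNA was caught on poly-T beads and copied with random hexamers. Per the submitters' processing notes, the tools were fastp 0.23.1, HISAT2 2.2.1 and HTSeq 2.0.5 with the build TAIR10; settings for strand and multiply mapped reads are not given in the sources used here. In 99.97% of 7363 genes the deposited TPM followed from the counts and the RefSeq exon length to within 1%.

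Counts were tested with edgeR 4.0.16 (limma 3.58.1, R 4.3.3): filterByExpr by group with minimum count 10 and minimum total 15, which left 18413 genes, TMM scaling (factors 0.960 to 1.03), a robust quasi-likelihood fit of 4 group means over the 12 libraries, two-sided tests of 5 contrasts, Benjamini-Hochberg adjustment over the 18413 genes and a threshold of 0.05. The SE is the absolute log2 fold change over the square root of F. The common biological coefficient of variation was 5.80%. The script was tested on simulated data made from the Col-0 mannitol and water libraries (18153 genes), where 84 of 100 genes with a set 2-fold change were called, as were 64 of 100 with a 1.5-fold change, beside 14 false calls. Counts limit precision, and the p-values set each difference against the spread between the libraries.

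The 9 genes and the lists were chosen with earlier results of these data known. All 9 are given in every comparison; from each of 3 lists of other clock genes up to 3 called genes are named per comparison, ranked by the size of their log2 fold change, provided a group compared averaged 1 CPM or more. Genes of like pattern are the 2 with the highest r of log2 CPM (prior count 2) taken from genes that averaged 5 CPM or more in some group and whose group means lay at least 1 apart. Gene names, overlaps and promoters came from RefSeq TAIR10.1 with Python 3.11.15. 1 promoter window is not reported here. Names that RefSeq does not pair with a locus are given as loci. The ODR1 transcript was not analysed here, so the mutant labels have no check from it. Alternatives used DESeq2 1.42.0, limma-voom, limma-trend on log2(TPM + 1) and log2(TPM + 0.1), other scalings and filters, a replicate block and each library left out.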

Additional observations from a re-analysis of the deposited data

Results flagged for a closer look

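None of the 9 day and evening genes had a mannitol effect that differed between genotypes past the threshold; 5 other clock genes did, by the interaction in the edgeR quasi-likelihood test with Benjamini-Hochberg adjustment over all genes. For CCA1 the log2 effect of mannitol was 0.24 in odr1-2, a call lost with total count scaling (0.17) and on log2(TPM + 1) (0.14), and -0.73 in Col-0, a difference of 0.98 (adjusted p = 3.25e-07, 0.83 to 1.1 over 23 alternatives). For LHY it was 0.02 in odr1-2 and -0.71 in Col-0, a difference of 0.73 (adjusted p = 1.15e-06, 0.62 to 0.80). For LNK2 the difference was 0.48 (adjusted p = 0.000656), and it was not called on log2(TPM + 1) (0.43) or log2(TPM + 0.1) (0.44). For LNK1, named after its values were seen, it was 0.37 (adjusted p = 0.0262), with an adjusted p up to 0.196 over the alternatives; the call was lost without odr1-2 mannitol replicate 3 (0.35), odr1-2 water replicate 2 (0.36) or 3 (0.34), Col-0 mannitol replicate 2 (0.31) or Col-0 water replicate 1 (0.38), 2 (0.36) or 3 (0.38). LNK1 overlaps AT5G64160 on the other strand by 245 bases, and that gene had 66.0% of its counts. For CAT3 the difference was -0.34 (adjusted p = 0.000159, -0.39 to -0.30), mannitol going with higher levels in both genotypes. These genes were on lists chosen with earlier results known.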

How the results depend on the processing

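Of 1066 alternative fits of the 9 genes, 1013 kept the side of the threshold, 47 lost a call, 6 gained one and 0 reversed a call; among the 1013, 13 uncalled values changed sign. Of the 27 calls, 13 held under every alternative in which the gene was tested, among them ELF4 in both genotype comparisons and in odr1-2 with mannitol, PRR7 in both genotype comparisons, and BOA and FKF1 with mannitol in both genotypes. A stricter filter on low counts, with a mean of at least 5 CPM, left PRR5 untested. The PRR5 call with mannitol in odr1-2 is among the 13. On TPM values, with either pseudocount, 4 of the 9 were higher with mannitol in odr1-2, 2 in Col-0, and 1 was higher in odr1-2 than in Col-0 in water. Of all 18413 genes tested, 2519, 3038 and 3293 were higher in these comparisons on log2(TPM + 1). On log2(TPM + 0.1) they were 2446, 3043 and 3251. At an adjusted p of 0.01, 3 of the 9 were higher in Col-0 with mannitol, beside 3008 of the 18413 genes. The interaction was passed by 450 genes of all tested at 0.01 and by 690 at 0.05. With total count scaling 1 of the 9 (BOA) was lower in the interaction, beside 629 of the 18413 genes. Leaving out each library in turn gave 6 to 7 higher and 1 to 1 lower with mannitol in odr1-2, 3 to 5 higher and 0 to 0 lower in Col-0, 2 to 2 higher and 2 to 4 lower between genotypes in mannitol, 1 to 2 higher and 3 to 7 lower in water, and 0 to 0 in the interaction. Over all genes the calls ran from 6998 to 8221, 6888 to 7872, 6586 to 7438, 6163 to 7563 and 558 to 918 in that order. Of other clock genes, TIC was at 0.02 and uncalled between genotypes in mannitol and ran from -0.15 to 0.11 with a library left out; -0.15, without Col-0 mannitol replicate 2, was called, and 0.11 came without Col-0 mannitol replicate 1; the cause was not tested. Scaling moved the balance of higher and lower calls over all genes. With mannitol in odr1-2 it was 3907 to 3919, against 3068 to 4957 with total counts and 2519 to 5152 on log2(TPM + 1), where the median of all genes shifted by -0.10. Between genotypes in mannitol it was 3779 to 3603, against 3134 to 4565 with upper-quartile scaling and 2909 to 4264 on TPM. In the interaction it was 199 to 491, against 97 to 471 on log2(TPM + 0.1). With the replicate number as a block, the 9 genes had 7 higher and 1 lower with mannitol in odr1-2, 5 and 0 in Col-0, 2 and 4 between genotypes in mannitol, 2 and 6 in water, and 0 and 0 in the interaction, and the block changed no call of the 9. Of the 18413 genes tested, 7925, 7898, 7469, 7265 and 757 were called with the block, in the same order. Libraries of 1 number shared little (r of their deviations from -0.03 to 0.03, and 6 of 12 correlated best with their own number). With 3 libraries per group this cannot exclude a pairing by number. Depth limits PRR5 (10 to 61 counts) and FKF1 (42 to 126) most.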
